A study of Mus musculus with 12 samples.

Results

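The protein components of the cytosolic ribosome were followed in mouse embryonic stem cells (ESCs) with and without Dgcr8, a gene whose product pairs with the nuclease Drosha in the processing of canonical microRNAs (miRNAs). The genes were chosen by name: protein-coding genes whose symbols start with Rpl (large subunit) or Rps (small subunit), without the S6 kinases (Rps6k), the Rps19 binding proteins (Rps19bp) and pseudogenes marked with -ps. Of 85 such genes, 82 reached 3 CPM (reads per library, scaled to a common depth) in at least 3 of the 12 libraries, of 14033 genes that passed the same filter. They comprised 50 Rpl and 32 Rps genes. Rpl24, Rpl3l and Rps27rt did not pass, with 53, 118 and 2 counts in all 12 libraries together.

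Cells of both genotypes were kept in serum with LIF and 2 kinase inhibitors (2i) and pulsed with 500 µM 4-thiouridine (4sU) for 30 min. RNA labelled in the pulse was captured and served as nascent RNA (4sU libraries), and RNA depleted of ribosomal RNA served as steady-state RNA (total libraries). The 4 groups were wild-type 4sU, wild-type total, Dgcr8 KO 4sU and Dgcr8 KO total, with 3 libraries each. The wild-type cells were the V6.5 line and the knockout was a single line made earlier, so the effect of the genotype and of the line cannot be told apart. The labels do not say whether replicates were separate cultures, and p-values therefore measure the spread between these libraries.

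Most ribosomal proteins are present in a single copy per ribosome and are made in matched amounts. Their mRNAs are short, abundant and long-lived, and most begin with a 5′ terminal oligopyrimidine (5′ TOP) tract, a cytosine followed by an unbroken run of pyrimidines, through which the mTOR kinase and the RNA-binding protein LARP1 control their translation. ESCs divide fast and spend much of their transcription on ribosomes, and the genes have left many processed pseudogenes in the genome, which complicates counting their reads.

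The letters around the annotated start sites were searched for such tracts. RefSeq promoter sequences (GRCm38.p6) matched 62 of the 82 genes. Where a gene had several annotated starts, the start with the longest run was taken, in these and in other genes. In the 30 bases from 15 before the start, 27 of 62 genes (43.5%) held a run of 8 or more pyrimidines, against 14.6% of 9777 other genes tested, and 20 (32.3%) held a run of 10 or more, against 6.94%. A 5′ TOP tract begins at the start itself, and the longest run held the annotated start in 18 of the 62 genes (29.03%), against 11.1% of the others. The windows below are those of 3 genes with long runs, of Rpl15 and Rpl5, whose total RNA rose, and of Rpl27, whose total RNA fell most. Capitals mark the longest pyrimidine run.
Rpl7a, chr2:26910792-26910821, plus strand: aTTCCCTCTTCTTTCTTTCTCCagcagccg
Rpl34, chr3:130730323-130730352, minus strand: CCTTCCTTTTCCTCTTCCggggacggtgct
Rpl35, chr2:39005117-39005146, minus strand: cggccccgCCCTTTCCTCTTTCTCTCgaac
Rpl15, chr14:18270972-18271001, minus strand: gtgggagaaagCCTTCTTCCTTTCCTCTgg
Rpl5, chr5:107900513-107900542, plus strand: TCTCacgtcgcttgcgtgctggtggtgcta
Rpl27, chr11:101442230-101442259, plus strand: acgctctgTTCCTgtctgctgctcgtgctg
The run was 21 bases in Rpl7a, 17 in Rpl15, 5 in Rpl27 and 4 in Rpl5. A short run in a window of this size says only that the annotated start, which may differ from the start used in ESCs, does not lie in a tract.

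Total counts ranged from 4593914 to 9295245 per library. Dgcr8 had 101, 111 and 92.5 CPM (scaled by TMM factors, as all CPM here) in the wild-type total libraries and 33.6, 34.1 and 32.04 in the libraries labelled Dgcr8 KO, a log2 difference of -1.60 (limma adjusted p = 4.56e-17, SE 0.08). All 8 ESC markers passed the filter. Their summed level was 5062 to 5168 CPM in wild-type and 4996 to 5058 CPM in Dgcr8 KO total libraries. In 4sU libraries it was 5462 to 5546 CPM in wild-type and 6177 to 6840 CPM in Dgcr8 KO. Of the 8, 3 were higher and 5 lower past the test in total RNA, where 26.1% and 35.4% of all genes were. None of 6 fibroblast markers passed, with a summed level of 0.564 to 3.77 CPM, and 1 of 5 endoderm markers passed. The summed neural markers lay at 153 to 155 CPM in wild-type and 80.0 to 88.0 CPM in Dgcr8 KO total libraries, and their part in the changes below was not tested.

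Reads counted for ribosomal protein genes made up a smaller share of the libraries from cells without Dgcr8. The 82 genes together held 2.00%, 2.10% and 2.05% of the counts of the wild-type total libraries and 1.62%, 1.64% and 1.62% of those of Dgcr8 KO, so the groups did not overlap. The group means were 2.05% ± 0.0475 and 1.63% ± 0.00937 (SD, n = 3), a fold of 0.793. In the 4sU libraries the genes held 1.33%, 1.54% and 1.37% in wild-type and 1.21%, 1.17% and 1.05% in Dgcr8 KO cells, which again did not overlap, with means of 1.415% ± 0.113 and 1.143% ± 0.0861 and a fold of 0.807. These are shares of counted reads that mapped to a single place, and reads from sequence shared with other genes are lost, as described below. They are therefore not the shares of ribosomal protein mRNA in the RNA. The 10 genes with the most counts over all libraries held 1.18% of the counts in wild-type total libraries. Fewer cells of a type and less RNA per cell cannot be told apart in bulk samples.

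The fall was small for each gene and spread over both subunits. In total RNA, 70 of the 82 genes were lower in Dgcr8 KO cells at an adjusted p under 0.05, where 35.4% of all genes were lower, and 3 were higher, where 26.1% were. The median log2 change was -0.40 (quartiles -0.59 and -0.25), a fold of 0.759, beside -0.09 over all genes tested. Of the 50 large-subunit genes 42 fell and 3 rose (median -0.44), and of the 32 small-subunit genes 28 fell and none rose (median -0.35). The changes were mostly modest: 2 genes, Rpl27 and Rpl39l, fell past an absolute log2 change of 1, and none rose past it, where 8.05% and 9.56% of all genes did. By library values, 70 genes were lower in all 3 Dgcr8 KO than in all 3 wild-type total libraries, 3 were higher and 9 overlapped, where 39.6% and 29.2% of all genes were lower and higher without overlap. With the median of all genes subtracted, the median of the ribosomal protein genes was -0.31. Another scaling shifts all genes alike and so could not move this difference. With other filters it was -0.38 (no filter) and -0.29 (3 CPM asked of all 12 libraries).

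The genes that moved against the rest were few. Rpl10l, an intron-poor autosomal copy of the X-linked Rpl10 best known from the testis, had 44.5, 47.9 and 50.1 CPM in wild-type and 87.9, 88.0 and 91.7 CPM in Dgcr8 KO total libraries. The 2 groups lay far apart, with a log2 difference of 0.90 (limma adjusted p = 2.08e-11, SE 0.08). Its parent Rpl10 went the other way, from 11.7, 15.1 and 14.6 CPM to 10.3, 8.95 and 9.96 CPM (log2 change -0.51, SE 0.15, limma adjusted p = 0.00316). All coding windows of Rpl10 and 12.5% of those of Rpl10l, in the sense given below, also occur in transcripts of other genes. The levels of these 2 genes can therefore not be compared with each other. Rpl5, which with RPL11 and 5S rRNA binds the p53 regulator MDM2, had 24.8, 30.2 and 28.8 CPM in wild-type and 41.3, 40.5 and 43.7 CPM in Dgcr8 KO total libraries, with no overlap (log2 change 0.57, SE 0.10, limma adjusted p = 1.12e-05). Rpl11 did not pass the test (log2 change -0.17, SE 0.13, limma adjusted p = 0.26). Rpl15, a large-subunit core protein, had 104.1, 112 and 96.7 CPM in wild-type and 130, 129 and 139 CPM in Dgcr8 KO total libraries (log2 change 0.35, SE 0.08, limma adjusted p = 0.000369). The only other gene with a positive value, Rps29, had 7 to 10 counts per wild-type total library and did not pass the test (log2 change 0.32, SE 0.35, limma adjusted p = 0.441).

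Among the falls, Rpl27, a large-subunit protein mutated in some cases of Diamond-Blackfan anaemia, had 24.8, 21.6 and 22.5 CPM in wild-type and 7.90, 11.03 and 10.4 CPM in Dgcr8 KO total libraries. The log2 change was -1.25 (SE 0.13, limma adjusted p = 4.36e-10), and all Dgcr8 KO libraries lay below all wild-type libraries. Rpl39l, the autosomal copy of the X-linked Rpl39 and like Rpl10l known from male germ cells, fell from 99.8, 94.4 and 95.3 CPM to 46.2, 45.8 and 45.9 CPM (log2 change -1.07, SE 0.08, limma adjusted p = 3.09e-13). The 2 germline-known copies thus changed in opposite directions. Rps27l, a paralogue of Rps27 and a known p53 target, fell from 201, 203 and 194 CPM to 111, 108 and 112 CPM (log2 change -0.85, SE 0.08, limma adjusted p = 2.56e-10). Rpl23a was counted at 22, 37 and 32 reads in wild-type and 16, 12 and 19 reads in Dgcr8 KO total libraries, and its fall of 0.98 on the log2 scale had a wider error (its SE was 0.25, limma adjusted p = 0.00131). All coding windows of Rpl27 and Rpl23a, in the sense given below, also occur in transcripts of other genes.

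**Figure D1:**
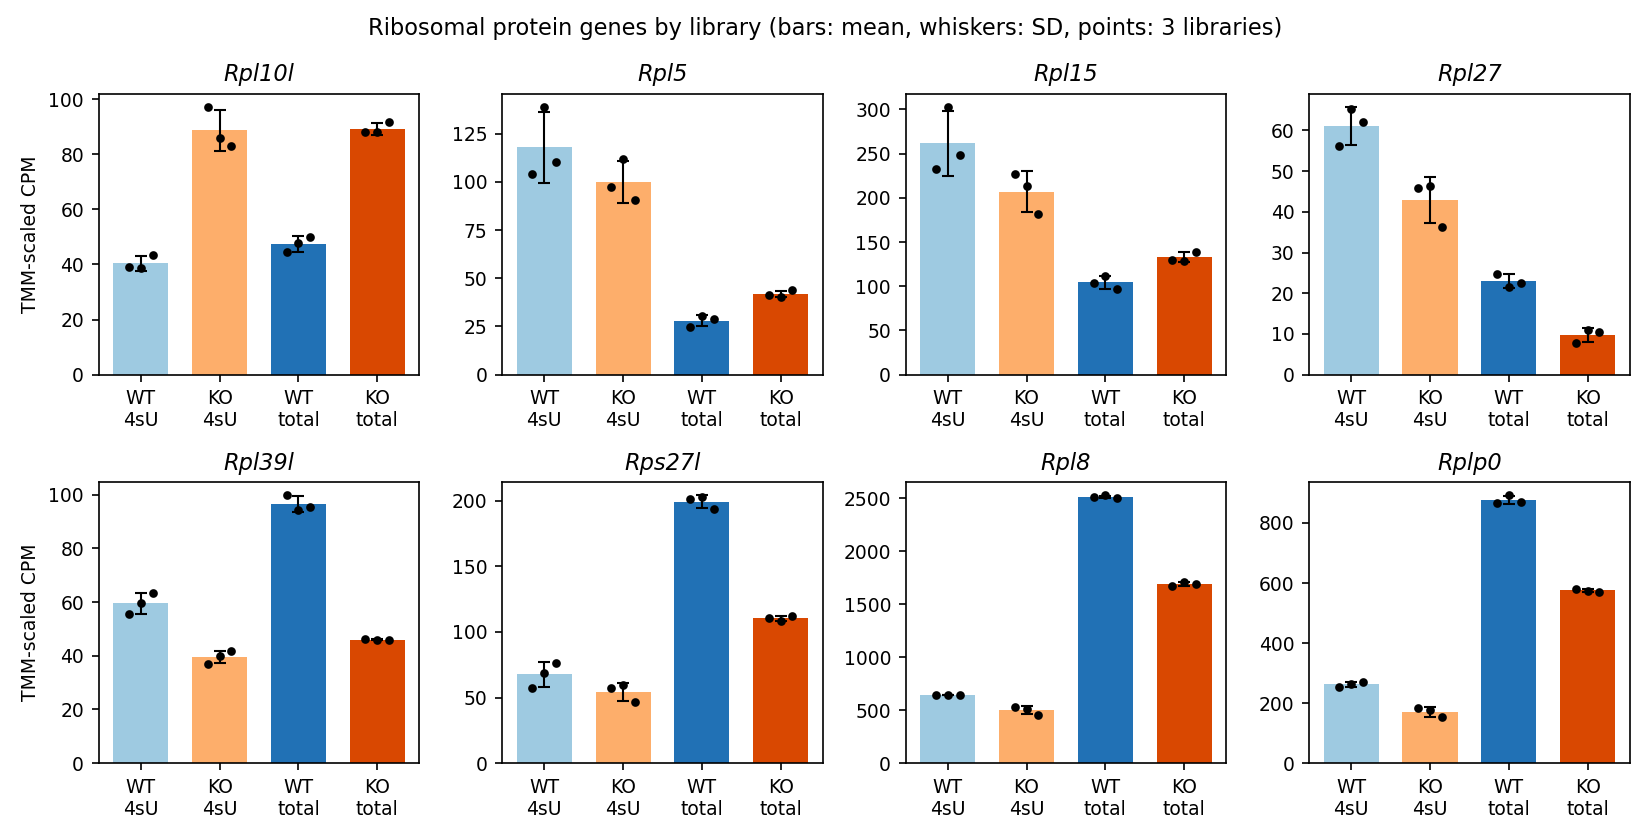
TMM-scaled CPM of 8 ribosomal protein genes in the 12 libraries, with bars for the mean, whiskers for the SD and points for the 3 libraries of each group (WT, wild-type and KO, Dgcr8 KO). Rpl10l stood higher in Dgcr8 KO in both kinds of RNA, Rpl5 and Rpl15 stood higher in total but not in nascent RNA, and the other 5 genes were lower in total RNA.

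The abundant genes gave the tightest values. Rpl8, whose product lies near the catalytic centre of the large subunit, had 2511, 2529 and 2506 CPM in wild-type and 1675, 1715 and 1691 CPM in Dgcr8 KO total libraries (log2 change -0.57, SE 0.04, limma adjusted p = 5.94e-13). The stalk proteins Rplp0, Rplp1 and Rplp2, which recruit translation GTPases, fell by unequal amounts. Rplp0 fell from 867, 892 and 871 CPM to 581, 575 and 571 CPM (log2 change -0.61), Rplp1 by 0.67 and Rplp2 by 0.30 on the log2 scale. Rps3, at the mRNA entry channel, fell by 0.58 on the log2 scale (limma adjusted p = 9.32e-12). Rpl4, among the 4 genes of highest level, fell by only 0.17 (SE 0.05). Rpsa, also known as a laminin receptor, fell by 0.18, and the Diamond-Blackfan anaemia gene Rps19 by 0.35 on the log2 scale.

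Paralogues of the family were compared as pairs by their own values, and the difference within a pair was not tested. Rpl39 fell by 0.43 on the log2 scale where Rpl39l fell by 1.07. Rps27 had 42 to 50 counts per wild-type total library, and its log2 change of -0.59 (SE 0.23) stood beside -0.85 for Rps27l. Rpl7 and its nucleolar relative Rpl7l1 fell by 0.56 and 0.66, and Rpl7a, a separate protein despite its symbol, by 0.64. Rpl22, needed in developing T cells, fell by 0.36 (limma adjusted p = 6.80e-06), while its paralogue Rpl22l1 did not pass the test (log2 change -0.10, limma adjusted p = 0.321). Rpl36a and Rpl36al fell by 0.83 and 0.49, Rpl3 by 0.36 and the X-linked Rps4x by 0.25. Besides Rpl11, Rpl22l1 and Rps29, the 9 genes that did not pass in total RNA included Rpl30, Rpl38, Rps12, Rps16 and Rps27a, and all 9 shared over 80% of their coding sequence with other transcripts in the sense given below, as did 59 of all 82. Rpl38, known for its role in translating Hox mRNAs, was counted at 15 to 21 reads per wild-type total library (log2 change -0.39, SE 0.30, limma adjusted p = 0.265). Rps27a, made as a fusion with ubiquitin, had a log2 change of -0.35 (limma adjusted p = 0.155). Rps6, the S6 kinase substrate, fell by 0.63 with a limma adjusted p = 0.0437, on 37 to 40 counts per wild-type library. Rpl10a fell by 0.40 (limma adjusted p = 0.0159).

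Nascent RNA moved the same way. In the 4sU libraries 61 of 82 genes were lower in Dgcr8 KO cells, where 28.0% of all genes were lower, and 1 was higher, where 28.3% were. The median log2 change was -0.31, a fold of 0.808, beside -0.02 over all genes. Of the large-subunit genes 41 fell and 1 rose (median -0.33), and of the small-subunit genes 20 fell and none rose (median -0.23). Rpl10l alone passed an absolute log2 change of 1, where 9.5% of all genes did so upwards and 5.27% downwards. Lower without overlap of libraries were 54 genes, where 29.4% of all genes were, 1 was higher, where 29.6% were, and 27 overlapped. The 4sU libraries were less alike than the total libraries: the median deviation of the ribosomal protein genes from their wild-type mean was 0.15 on the log2 scale in wild-type 4sU replicate 2 and -0.46 in Dgcr8 KO 4sU replicate 3, where the other KO 4sU libraries had -0.20 and -0.27. The median change was -0.26 without the wild-type replicate and -0.22 without the KO replicate, and -0.31 with both.

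Rpl10l rose again, from 38.9, 38.7 and 43.6 CPM to 97.2, 85.8 and 82.8 CPM in 4sU RNA (log2 change 1.13, SE 0.09, limma adjusted p = 9.16e-13). The largest falls were those of Rpl36a (log2 change -0.87, SE 0.12), Rpl13 (-0.86, SE 0.09), Rps24 (-0.73, SE 0.07) and Rplp0 (-0.62, SE 0.06). Rpl13 fell from 115, 144 and 125 CPM to 83.4, 67.9 and 60.7 CPM (limma adjusted p = 7.48e-10) and Rps24 from 181, 214 and 175 CPM to 122, 119 and 102 CPM (limma adjusted p = 5.04e-10), without overlap in either. Genes at the other end did not pass the test: Rps23, of the decoding centre, had a log2 change of 0.15 (limma adjusted p = 0.2), Rps12 of 0.00 and Rpl41, the shortest protein of the family, of -0.02. In both total and nascent RNA 56 genes were lower past the test, which is 56 of the 70 that fell in total RNA and 56 of the 61 that fell in nascent RNA. Another 14 fell in total RNA and did not pass in nascent RNA.

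**Figure D2:**
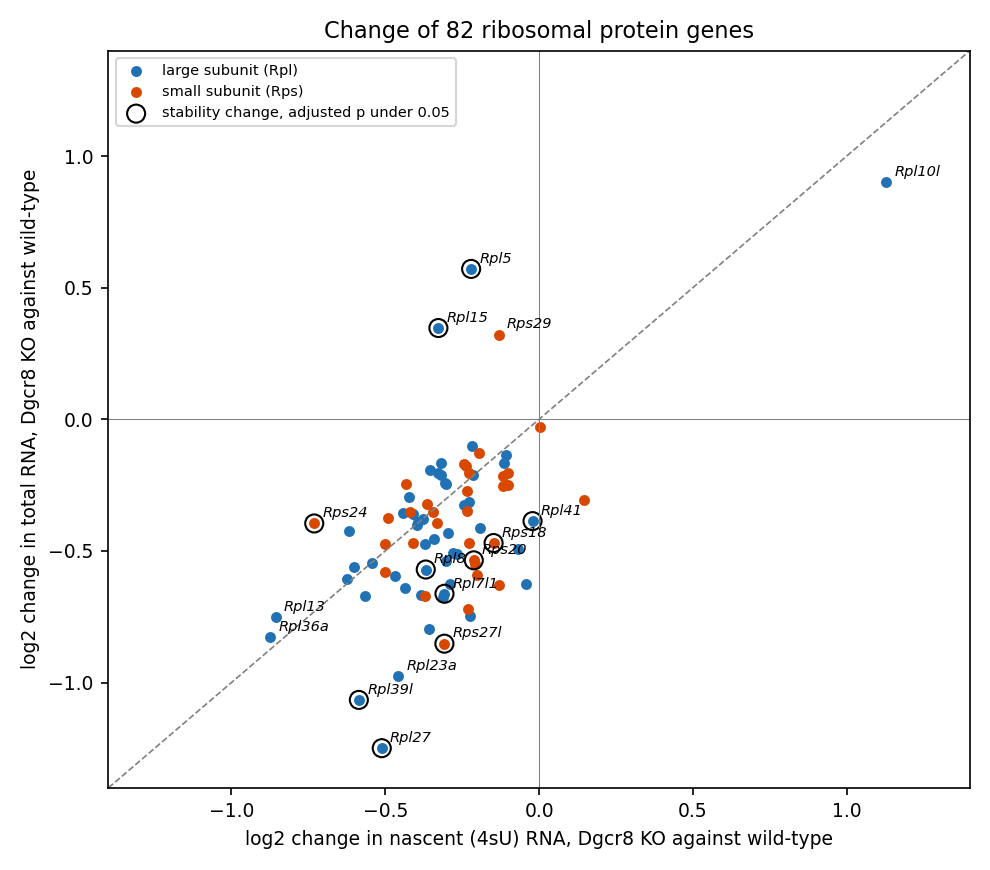
Log2 change of each of the 82 genes in nascent (x axis) and total RNA (y axis), Dgcr8 KO against wild-type, with large-subunit genes in blue and small-subunit genes in orange; the dashed line marks equal change. Most points lie at the lower left along the line, Rpl10l lies in the upper right, and the 11 ringed genes are those with a stability change past the test.

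The ratio of total to nascent RNA served as the measure of relative mRNA stability, and the interaction of library type and genotype as its change. For most of these genes no such change was detected. The ratio was higher in Dgcr8 KO cells for 3 genes and lower for 8, where 5.02% and 11.1% of all genes were, and none changed by more than a log2 value of 1, where 0.791% rose and 0.969% fell that far. The median over the 82 genes was -0.08, beside -0.09 over all genes. The 4sU and total RNA of a sample were split from the same extract, and with the 2 libraries of a genotype and number as a replicate block 4 genes were higher and 17 lower, where 6.19% and 13.4% of all genes were. DESeq2, with its own size factors, gave 5 higher and 4 lower, and the split over all genes moved from 704 higher and 1557 lower to 912 and 811. The number of lower genes was also set by single replicates: it was 4 without wild-type replicate 1, 3 and 4 without Dgcr8 KO replicates 1 and 2, and 16 without Dgcr8 KO replicate 3.

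Rpl5, Rpl15 and Rps24 were the 3 genes with a higher ratio. In 4sU RNA Rpl5 had 104.2, 139 and 110 CPM in wild-type and 97.4, 112 and 90.6 CPM in Dgcr8 KO cells. These libraries overlapped, though nascent Rpl5 was lower past the test (log2 change -0.22, limma adjusted p = 0.0285), while its total RNA rose as given above. Its log2 stability change was 0.79 (SE 0.14, limma adjusted p = 0.000132). Rpl15 fell in nascent RNA, from 233, 303 and 249 CPM to 227, 213 and 182 CPM, and rose in total RNA, a stability change of 0.67 (SE 0.11, limma adjusted p = 6.25e-05). Rps24 fell less in total (-0.40) than in nascent RNA (-0.73), a stability change of 0.34 (SE 0.09, limma adjusted p = 0.01). Their longest annotated 3′ UTRs were 1009 to 1188 bases, beside a median of 175 over the 82 genes, a feature looked at after the values were seen. Of the 10 ribosomal protein genes with over 1000 bases of 3′ UTR, these 3 were higher, Rpl7l1 and Rps20 were lower and the other 5 did not pass, and the median stability change of the 10 was 0.00. All coding windows of Rpl5 and Rpl15, in the sense given below, also occur in transcripts of other genes.

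Among the 8 genes with a lower ratio, Rpl27 had 56.1, 65.3 and 62.1 CPM in wild-type and 46.0, 46.4 and 36.4 CPM in Dgcr8 KO 4sU libraries. Its nascent fall of 0.51 was smaller than its fall of 1.25 in total RNA, a stability change of -0.74 (SE 0.18, limma adjusted p = 0.00307). Rps27l (-0.54, SE 0.12, limma adjusted p = 0.0012), Rpl39l (-0.48, SE 0.11, limma adjusted p = 0.00223) and Rpl7l1 (-0.36, SE 0.08, limma adjusted p = 0.00102) fell likewise. Other paralogues, Rpl36al (-0.42, limma adjusted p = 0.0762) and Rpl22l1 (0.11, limma adjusted p = 0.605), did not pass. Rpl41, Rps20, Rps18 and Rpl8 had changes of -0.37, -0.32, -0.32 and -0.20 (limma adjusted p = 0.0142, 0.0258, 0.0239 and 0.019). All coding windows of Rpl27 and Rpl41, in the sense given below, also occur in transcripts of other genes. Rpl10l, with a change of -0.23 (limma adjusted p = 0.185), did not pass. Rpl36 (-0.58, SE 0.28), Rpl29 (-0.52, SE 0.22) and Rps29 (0.45, SE 0.43) had values as large as some of these but did not pass (limma adjusted p = 0.16, 0.111 and 0.535). With the replicate block Rpl36 and Rpl29 passed (limma adjusted p = 0.0318 and 0.0465), as did the lower ratios of Rpl36al and Rps23 (0.0328 and 0.0395) and the higher ratio of Rpl4 (0.0256).

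The 3′ UTRs were searched for matches to the seed of the miR-290 to miR-295 cluster, the most abundant miRNAs of mouse ESCs, which Dgcr8 KO cells cannot make. The mature sequences from RefSeq (GRCm38.p6) share their seed, bases 2 to 8, in capitals.
miR-291a-3p, chr7:3218968-3218989, plus strand: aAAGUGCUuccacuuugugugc
miR-294-3p, chr7:3220691-3220712, plus strand: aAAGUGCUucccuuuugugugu
miR-295-3p, chr7:3220815-3220837, plus strand: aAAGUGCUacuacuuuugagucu
A match of 7 bases (AGCACTT or GCACTTA on the transcript strand) lay in the longest 3′ UTR of 7 of 82 genes (8.54%), beside 21.3% of the 11797 other protein-coding genes tested, whose median 3′ UTR was 1204 bases against 175. Transcript sequences from GENCODE M21 (GRCm38) around 3 of the sites are given with the match in capitals, to show the only 8-base match, in Rpl11, and the shared flank of the others.
Rpl11, chr4:136049871-136049900, minus strand: ctgggaccacaAGCACTTAaagaaagcctc
Rpl23, chr11:97777758-97777786, minus strand: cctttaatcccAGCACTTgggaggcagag
Rpsa, chr9:120132174-120132202, plus strand: cctttaatcccAGCACTTgggagtcaggc
The sites of Rpl23 and Rpsa follow the same 11 bases, letters also found in the rodent B1 repeat. The stability change was -0.05 for Rpl11, 0.11 for Rpl23, 0.00 for Rpl37, 0.11 for Rps15a, -0.32 for Rps20 and 0.06 for Rpsa. Rps20 alone of the 7 passed the test, and in the downward direction.

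Levels per length spread over a far wider range in total than in nascent RNA. In wild-type total RNA the level, in CPM per kb of counted exons, ran from 2.92 for Rps29 to 2918 for Rpl8, a 998-fold range with a median of 96.5, beside a median of 8.74 over all genes. In wild-type 4sU RNA it ran from 30.9 for Rpl38 to 747 for Rpl8, a 24.2-fold range with a median of 113, beside 8.55 over all genes. Above the 90th percentile of all genes lay 46 of the 82 genes in total and 75 in 4sU RNA. The highest in total RNA were Rpl8, Rplp1 and Rpl4, at 2918, 1846 and 1748 CPM per kb, and the 4 lowest were Rps29, Rpl28, Rpl38 and Rps16, at 2.92, 3.57, 4.07 and 4.18 CPM per kb. Of the 81 neighbouring pairs in this order, 59 overlapped in their libraries.

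**Figure D3:**
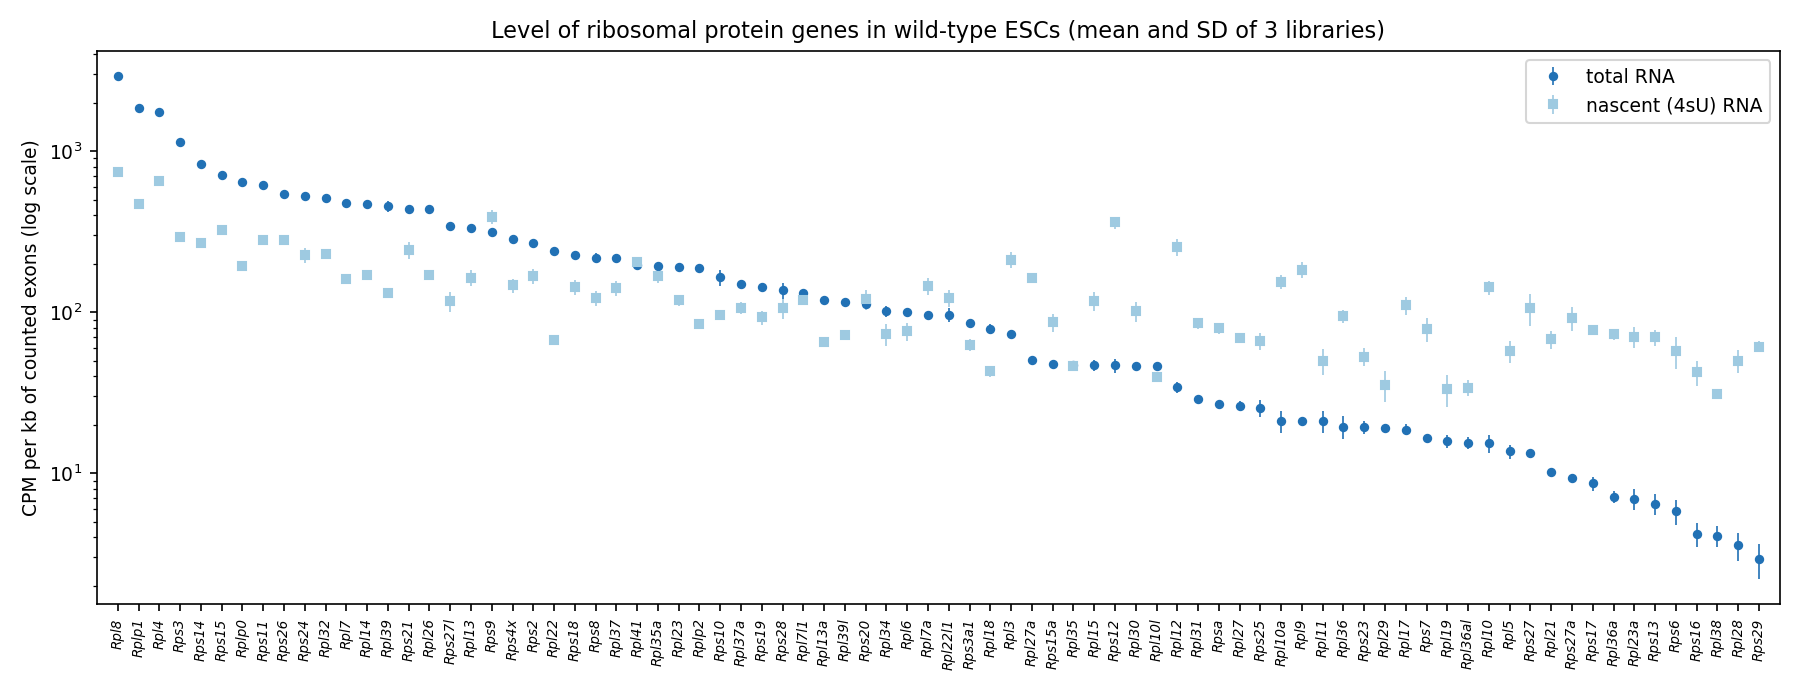
Level of the genes reported here in wild-type ESCs, in CPM per kb of counted exons on a log axis, as the mean and SD of 3 libraries, in the order of total RNA. Total RNA (circles) falls from 2918 to 2.92 while nascent RNA (squares) stays between 30.9 and 747, so the total lies above the nascent level on the left and below it on the right.

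The total to nascent ratio in wild-type cells was past the test for nearly all of these genes and in both directions. It was higher in total RNA for 40 genes, where 44.3% of all genes were, and lower for 39, where 39.3% were, with 19 and 33 past an absolute log2 ratio of 1, where 21.4% and 25.0% were. The highest log2 ratios were those of Rplp1 (1.98), Rps3 (1.97), Rpl8 (1.97) and Rpl22 (1.84), and the lowest those of Rps29 (-4.35), Rpl28 (-3.76), Rps13 (-3.41) and Rps16 (-3.33). In Dgcr8 KO cells 37 genes were higher and 42 lower, where 41.6% and 41.7% of all genes were.

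These ratios varied with how much sequence a gene shares with others. The authors kept reads that mapped to a single place, and a read from coding sequence that a pseudogene repeats exactly is then lost. For each gene the share of 50-base windows of its coding sequence that also occur in transcripts of other genes was computed, 50 bases being the read length. The median share was 90.8% for the ribosomal protein genes and 0 for 11797 other protein-coding genes tested. It was over 50% for 68 of the 82 (82.9%), beside 5.65% of the others, and 100% for 29 genes. Rpl39l shared none. Across the 82 genes, which share libraries and are not independent replicates, Spearman's rho of the shared percent was -0.80 with the wild-type total to nascent ratio (Pearson's r -0.62) and -0.80 with the wild-type level in total RNA, but -0.47 with the level in 4sU RNA. With the share taken over the whole transcript, untranslated sequence included, rho was weaker, at -0.46 with the ratio, -0.40 with the total level and -0.09 with the 4sU level. Both shares were chosen after seeing the data. The median log2 ratio was 1.15 in the 14 genes with under 50% shared, 0.69 in 24 genes with 50% to under 90%, -0.57 in 15 genes with 90% to under 100% and -2.89 in the 29 genes at 100%. The wild-type total CPM was also divided by the kb of windows, in 1 transcript per gene, found in no transcript of another gene. Reads were not recounted, and the CPM still covered all counted exons. These quotients spanned a 983-fold range. Their rho with the whole-transcript share was -0.01 in place of -0.40. The divisor shrinks as that share rises, so this move is partly built in and does not show that sharing was accounted for. The order changed (rho of both orders 0.85), with Rplp1 above Rpl8. Rps27, with only 0.004 kb of such windows, moved from rank 71 to rank 9. The ratios were not recomputed in this way, and the values of heavily shared genes are given as measured and not as stability or abundance. The table also held 288 pseudogenes marked with -ps, of which 11 passed the filter. On the same strand, exons of Rpl13a were overlapped over 54.9% of their bases by other annotated genes and those of Rpl36al, Rpl32 and Rpl19 over 24.5%, 14.5% and 14.4%.

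**Figure D4:**
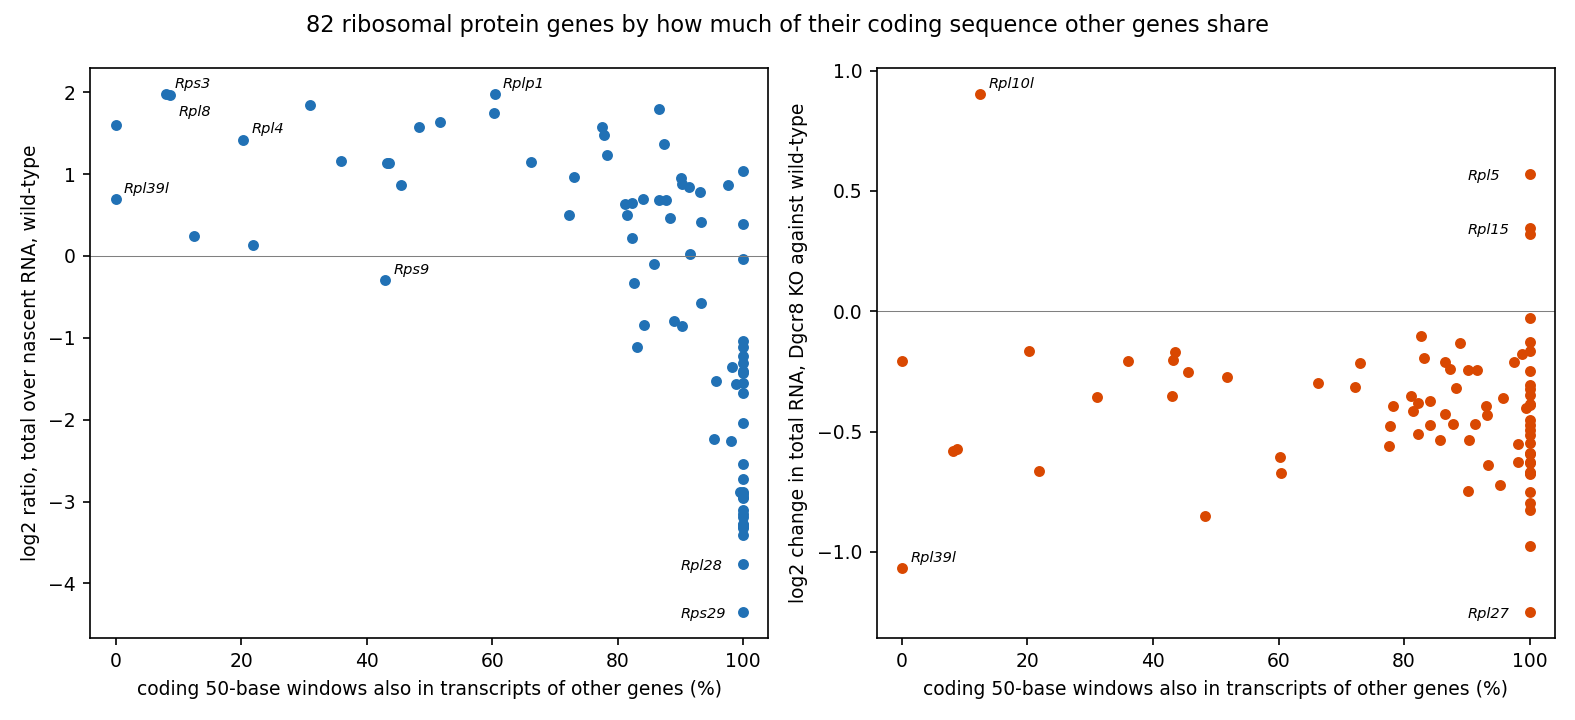
The 82 genes by the percent of coding 50-base windows also found in transcripts of other genes (x axis), against the log2 total to nascent ratio in wild-type cells (left) and the log2 change in total RNA, Dgcr8 KO against wild-type (right). The ratio drops from a median of 1.15 to one of -2.89 along the axis, while the change stays mostly between 0 and -1.

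The change in Dgcr8 KO cells, which compares each gene with itself, was seen in every class of sharing. The median log2 change in total RNA was -0.30 in the 14 genes with the least sharing, of which 13 fell and 1, Rpl10l, rose. It was -0.38 in the next class, with 21 of 24 lower, -0.43 in the third, with 15 of 15 lower, and -0.49 at 100%, with 21 of 29 lower and 2, Rpl5 and Rpl15, higher. Spearman's rho of the shared percent with the total change was -0.16 and with the stability change -0.22. With the share taken over the whole transcript, rho was -0.26 with the total change and -0.24 with the stability change.

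Further features of the genes are given as descriptions. A promoter motif was counted for a gene if any of its annotated promoters held it. Small nucleolar RNAs, which guide the modification of ribosomal RNA, lay within 30 of the genes, 58 in all with up to 5 in Rpl4, and the median total change of these hosts was -0.37 beside -0.41 in the others. In promoters of 300 bases (250 before to 50 after the start, both strands), the ETS motif CCGGAAG lay in 26 of 62 ribosomal protein genes (41.9%) and 20.5% of the other genes. The YY1 motif ATGGCGG lay in 17.7% against 9.63%, the SP/KLF motif GGGCGG in 64.5% against 69.9% and TATAAA in 11.3% against 8.41%.

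Genes for other steps of ribosome production were counted in the same way, beside the percentages of all genes given above. Of the ribosomal proteins whose symbols start otherwise, Fau (log2 change -0.76, limma adjusted p = 0.0266) and Rack1 (-0.20, limma adjusted p = 0.000457) fell in total RNA. Of 44 ribosome biogenesis genes tested, 38 fell and none rose in total RNA, and 32 fell and 2 rose in nascent RNA, with median changes of -0.44 and -0.33. The largest falls were those of Nhp2, of the box H/ACA particles (log2 change -1.22, limma adjusted p = 4.14e-16), and Lyar, a nucleolar protein of ESCs (-1.05, limma adjusted p = 2.89e-13). Of 15 genes of RNA polymerase I transcription, 7 fell and 2 rose in total RNA (median -0.19): the initiation factor genes Taf1b (0.78) and Rrn3 (0.39) rose while Znrd1, a polymerase subunit, and Taf1d fell by 0.99 and 0.75.

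Of 20 other mRNAs with a known 5′ TOP tract, 11 fell and 2 rose in total RNA and 12 fell and 1 rose in nascent RNA, with a median total change of -0.27. The elongation factor subunit Eef1g and the poly(A) binding protein Pabpc1 fell by 0.73 and 0.68, and Eif3l and Eef1a1 rose by 0.20 and 0.18 on the log2 scale. Of 17 genes of the mTOR pathway and related regulators, 10 fell and 2 rose in total RNA (median -0.27). The translation repressor Eif4ebp1 fell by 1.46 (limma adjusted p = 2.19e-18) and Cnbp, which binds 5′ TOP mRNAs, by 0.70, while the S6 kinase Rps6kb1 and the mTOR inhibitor Tsc1 rose by 0.36 and 0.27. Of 76 mitochondrial ribosomal protein genes, 56 fell and 2 rose in total RNA (median -0.45), and 37 fell and 1 rose in nascent RNA (median -0.26). Mrpl11 and Mrpl42 fell by 1.31 and 1.15, and Mrpl32 and Mrps15 rose by 0.28 and 0.25. The ratio of total to nascent RNA was lower past the test for 16 of these 76 genes, for 12 of the 44 biogenesis genes, for 7 of the 17 mTOR genes and for 5 of the 15 polymerase I genes, beside 8 of the 82 cytosolic ribosomal protein genes and 11.1% of all genes. The other 5′ TOP mRNAs had 4 of 20 higher (Eef1a1, Eef1b2, Eef2 and Nap1l1, by 0.18, 0.38, 0.32 and 0.28) and none lower, where 5.02% of all genes were higher. For these lists the ratio was counted with TMM scaling only. Over all genes, 1557 were lower and 704 higher with it, and 811 and 912 with DESeq2.

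**Figure D5:**
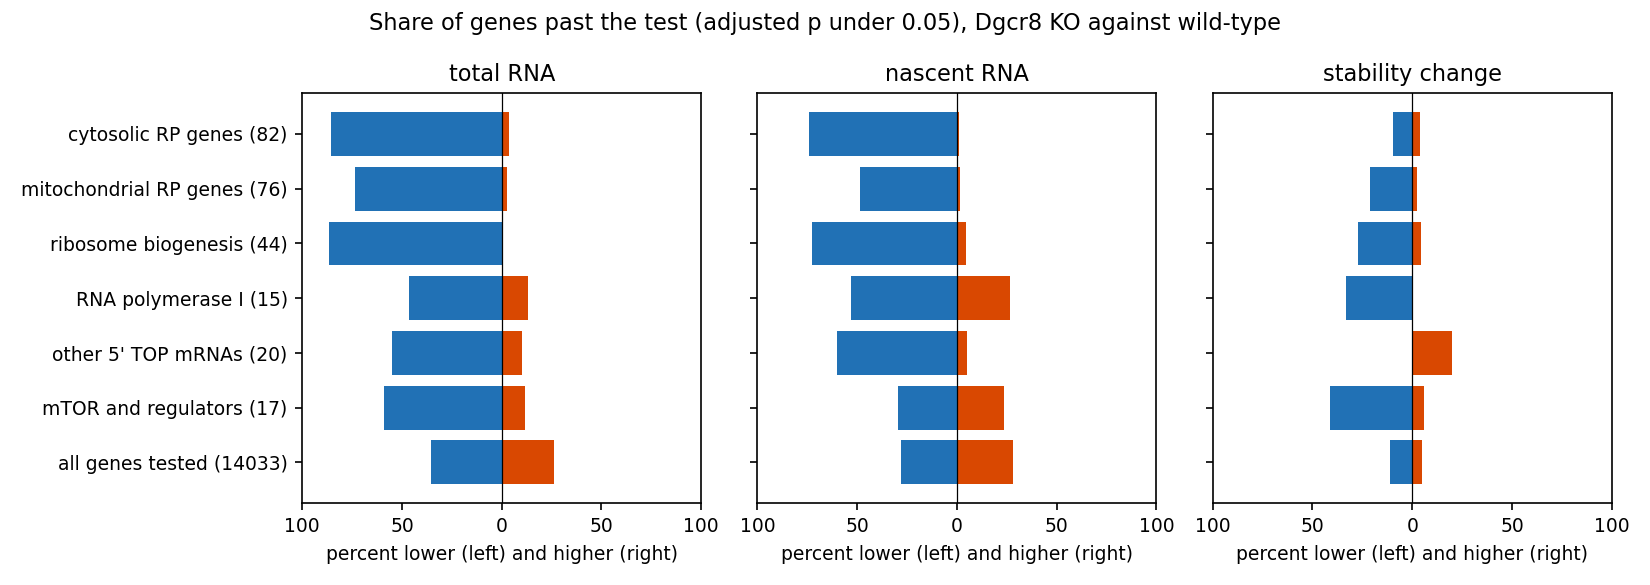
Percent of each gene group past the test (adjusted p under 0.05) in total RNA, nascent RNA and the stability change, Dgcr8 KO against wild-type, lower to the left in blue and higher to the right in orange, with the number of genes tested in brackets. Cytosolic and mitochondrial ribosomal protein genes and ribosome biogenesis genes lie mostly to the left in total RNA, with 70 of 82, 56 of 76 and 38 of 44 genes lower.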

How the data were processed

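The authors trimmed reads with cutadapt 1.14, mapped them uniquely with STAR 2.5.3a to mm10 and counted reverse-stranded exon reads with featureCounts 1.5.3 (GENCODE M14 without rRNA genes, plus spike-ins). The deposited values were these raw counts per gene in single-end 50-base libraries, made with either of 2 kits. Spike-ins held 1 count, so changes are relative. Names came from GENCODE M21 (51274 of 51559 identifiers matched) and groups from the sample titles. Genes with 3 CPM in 3 libraries were kept, and counts were TMM-scaled (edgeR 4.0.16) and fitted with voom weights in limma 3.58.1 (R 4.3.3) over all 12 libraries by library type, genotype and their interaction, with Benjamini-Hochberg adjustment over 14033 genes. Scripts were tested on simulated data. Replicate pairs all differed beyond sampling noise (lowest chi-square over degrees of freedom, 1.61).

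The genes and lists were chosen with earlier results of these data known. Genes named were the 4 largest rises and falls in each comparison, the 4 highest and lowest levels, paralogues, members with well-known roles, Dgcr8 and the 2 largest rises and falls past the test in each list; a few of these are not reported here. Others were named after their values were seen (the genes in the account of shared sequence, start windows, seed sites, and every further gene with a stability change). Alternatives were edgeR, DESeq2 1.42.0, other scalings and filters, replicate blocks and leaving out each replicate. Standard errors and p-values carry the spread between libraries. Total and 4sU RNA of a sample were split from the same extract per the methods of the study, and libraries of the same genotype and number deviated together (r 0.018 to 0.116, 12 of 12 best with their own number).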

Additional observations from a re-analysis of the deposited data

Results flagged for a closer look

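For 11 genes the change between genotypes differed between total and nascent RNA by the interaction test (limma adjusted p under 0.05). The log2 change in total RNA minus that in nascent RNA was 0.79 for Rpl5, 0.67 for Rpl15 and 0.34 for Rps24. It was -0.74 for Rpl27, -0.54 for Rps27l, -0.48 for Rpl39l, -0.37 for Rpl41, -0.36 for Rpl7l1, -0.32 for Rps20, -0.32 for Rps18 and -0.20 for Rpl8. The shares of all genes past this test were 5.02% higher and 11.1% lower. All coding windows of Rpl5, Rpl15, Rpl27 and Rpl41 also occur in transcripts of other genes, and their values are given as measured.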

How the results depend on the processing

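Changes are relative to all genes, the knockout was 1 line, and some genes had few unique reads (7 to 10 per wild-type total library for Rps29).

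The median change of the 82 genes in total RNA, -0.40, was -0.37 with DESeq2, with RLE scaling, without a filter and with 3 CPM asked of all 12 libraries (76 genes left), and -0.35 with library size only; leaving out a replicate gave -0.43 to -0.38. Genes with a lower stability were 4 with DESeq2, RLE or upper-quartile scaling and 5 without a filter, and 3 to 16 with a replicate left out; genes with a higher stability were 5 with DESeq2 or RLE. The median stability change was 0.0165 with DESeq2. The median wild-type ratio, -0.01, was -0.11 with DESeq2, -0.10 with RLE, -0.33 with upper-quartile scaling, -0.18 with library size only and 0.0894 without a filter, where the median of all genes moved by -0.32 (upper quartile), -0.17 (library size) and -0.47 (no filter). The knockout ratio, -0.21, was -0.47, -0.36 and -0.10 with the last 3 and -0.33 to -0.18 with a replicate left out. With protein-coding counts as denominator the shares were 2.17% and 1.73% in total and 1.59% and 1.27% in 4sU libraries, wild-type first. Ratios near 0 changed sign: Rpl10l in wild-type to -0.0837 (upper quartile) and -0.0338 (3 CPM in all libraries), Rpl7l1 in wild-type to -0.18, -0.13 and, with library size, -0.0317, and Rpl39l in knockout to -0.0386 and -0.0431. The cause was not tested. No named gene past the test changed sign in total RNA, nascent RNA or stability under the alternatives run. Calls were lost, however, in 38 cases (1 gene under 1 alternative) in total RNA, 29 in nascent RNA and 16 in stability. Calls were gained in 0, 10 and 17 cases, and the outcome was the same in 573, 572 and 622. With a replicate left out, 45 to 63 genes were lower in nascent RNA.

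Between genotypes the replicate numbers did not pair the libraries (r of deviations over all genes -0.09 to 0.082, 5 of 12 libraries best with their own number). With a replicate block by number the total median was -0.41, with 71 genes lower, and stability was higher for 3 and lower for 11. The pairing of 4sU with total libraries by extract, as a replicate block by genotype and number, gave 4 higher and 17 lower stability calls, and ended no call of a named gene. A count of windows unique in the genome was not run, and transcripts of other genes were used instead, an analysis chosen after seeing the data.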
